A study of Drosophila melanogaster with 6 samples.

Results

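The cytochrome P450 genes of Drosophila melanogaster were followed in the heads of pum kd and control males. A gene was taken as a member when its FlyBase symbol is Cyp, then a number, then a lower-case letter, and symbols of pseudogenes, which end in Psi, were dropped. This gave 82 members among the 17807 genes counted. The rule leaves out the cyclophilins Cyp1 and Cyp40, which share the prefix only, and the P450 genes that carry other names, such as those of ecdysone synthesis. By Cyp number there were 22 Cyp4 genes, 22 Cyp6 genes, 6 Cyp9 genes, 7 Cyp12 genes and 25 genes with other numbers.

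Cytochrome P450s are heme enzymes that use oxygen and electrons from a partner protein to oxidise small, mostly fat-soluble molecules. Insects use them to break down plant toxins and insecticides, and also to make and clear ecdysteroids, juvenile hormone, pheromones and the hydrocarbons of the cuticle. Most sit in the membrane of the endoplasmic reticulum and receive electrons from the reductase Cpr, while the Cyp12 enzymes belong to a mitochondrial clan that depends on ferredoxins. Cyp6, Cyp9 and Cyp28 belong to the CYP3 clan, known for detoxification, and Cyp4 to the CYP4 clan, which includes enzymes that act on fatty acids and hydrocarbons.

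Poly-A RNA was sequenced from 3 pum kd and 3 control libraries, each made from 10 pooled male heads. The pum kd flies expressed UAS-pumRNAi (TRiP.HMS01564, inserted at attP2), against the translational repressor Pumilio. The control flies expressed UAS-mCherryRNAi (VALIUM20, attP2), against a protein that flies lack. The study lists w1118/y1,sc*,v1,sev21 for both genotypes, a notation for paired X chromosomes that does not say which X these males carried. Both genotypes also carried the driver esg-Gal4 with tub-Gal80ts, Su(H)GBE-Gal80 and the reporter UAS-2xYFP. They were reared at 18 °C and kept at 29 °C to switch the transgenes on. The flies were mated, entered the sleep recording about a week after eclosion, and were frozen for head collection when it ended. The driver is active in intestinal stem cells and in the corpus allatum, the gland that makes juvenile hormone. Each library is a pool, and p-values measure the spread between pools. In whole heads, fewer cells of a type and less RNA per cell cannot be told apart.

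Gene counts summed to between 33258537 and 39377789 per library in pum kd and between 33445243 and 34300972 in control. The targeted gene pum had 176, 192 and 228 CPM (counts scaled to the size of the library) in the pum kd libraries, against 346, 168 and 270 CPM in the control libraries. Its groups overlapped, and in edgeR its log2 fold change was -0.40 (adjusted p = 0.993). These values cover all cells of the head, and cells with an active driver were not measured apart. Whether pum fell in the targeted cells was therefore not tested. Photoreceptor markers, which mark the eye, summed to between 86728 and 104454 CPM in the 6 libraries. The 9 midgut markers summed to between 47.5 and 73.5 CPM in pum kd and between 40.2 and 58.3 CPM in control, nearly all of it from Amy-p and Mal-A1, and 3 of the 9, the trypsins alphaTry and betaTry among them, were at 0 in all 6 libraries. The 5 Malpighian tubule markers summed to between 541 and 714 CPM in pum kd and between 467 and 1091 CPM in control. Nearly all of it came from NaCP60E, and Uro was at 0 in all 6. Within each genotype NaCP60E ranked the libraries as the neuron markers did, so this sum cannot be read as tubule RNA. SecCl, Irk1 and CapaR reached at most 16.2, 10.1 and 1.97 CPM in a library. Several libraries stood apart in other tissues. The 6 antenna markers summed to 223, 74.7 and 7.95 CPM in pum kd libraries, against 3.72, 5.31 and 6.12 CPM in control libraries, and the 4 neuron markers to 2684, 3261 and 3642 CPM in pum kd, against 4433, 2759 and 3801 CPM in control. None of these markers was called.

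Most P450 genes were read in heads. Counts were found in all 6 libraries for 68 of the 82 members, and in no library for 3 of them, Cyp12d1-d, Cyp313a5 and Cyp316a1. To compare genes, levels were set per kilobase of exon (RPKM). The mean level over the 6 libraries was over 10 RPKM for 30 members, between 1 and 10 RPKM for 34, and under 1 RPKM for 15. The 5 most abundant members made up 49.4%, 51.5% and 45.5% of the summed P450 level in the pum kd libraries, against 44.8%, 46.0% and 44.6% in the control libraries. A few enzymes thus held close to the same level as all the others together.

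**Figure D1:**
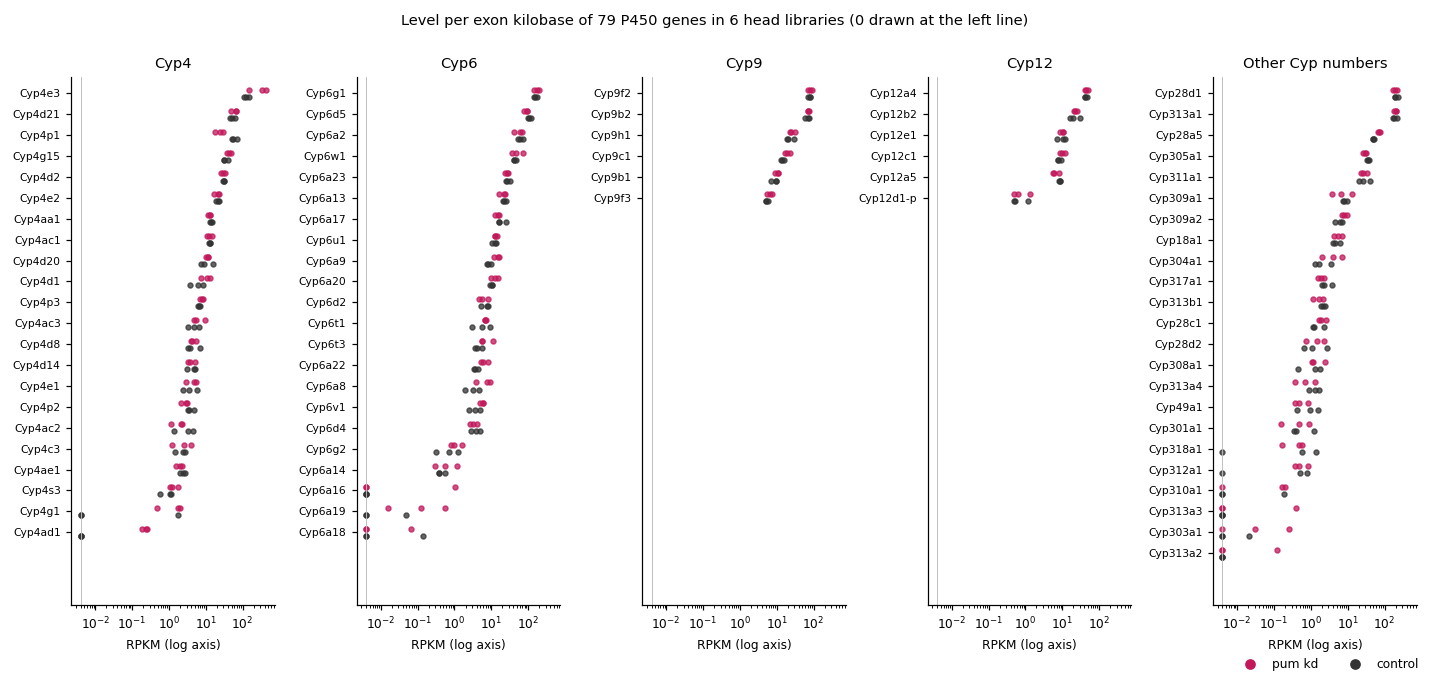
Level per exon kilobase (RPKM, log axis) of the 79 P450 genes with at least 1 count, in panels by Cyp number and ordered by mean level. Each point is a library, pum kd above control, and a value of 0 is drawn at the left line; Cyp4e3, Cyp28d1, Cyp313a1 and Cyp6g1 lie at the top and the 2 genotypes overlap for most genes.

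Of the most abundant genes, only Cyp4e3 had a fitted difference beyond 1 on the log2 scale between the genotypes. Cyp4e3, whose activity in the Malpighian tubule contributes to permethrin tolerance, had 335, 421 and 150 RPKM in pum kd, against 122, 151 and 106 RPKM in control. Cyp28d1, linked to nicotine tolerance, had 191, 223 and 172 RPKM in pum kd, against 195, 231 and 194 RPKM in control. Cyp313a1 had 209.9, 183 and 206 RPKM in pum kd, against 168, 222 and 180.2 RPKM in control. These last 2 genes were more abundant than Cyp4e3 in each control library, and their genotypes overlapped. Cyp6g1, which confers resistance to DDT and neonicotinoids when overexpressed, had 178, 192 and 145 RPKM in pum kd, against 142, 170.1 and 153 RPKM in control. The next in level was Cyp6d5, with 92.3, 93.6 and 77.5 RPKM in pum kd, against 101, 118 and 105 RPKM in control. Every pum kd library lay under every control library for Cyp6d5, by a log2 fold change of -0.30, which did not pass the test (edgeR adjusted p = 0.993).

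Summed levels overlapped between the genotypes in all 5 classes. The Cyp4 genes summed to 612, 684 and 398 RPKM in pum kd libraries, against 383, 458 and 370 RPKM in control libraries. The third pum kd library lay inside the control range, and the other 2 lay above it. Cyp4e3 alone gave the greater part of the Cyp4 sum in pum kd replicates 1 and 2, and less in the other libraries. The Cyp6 genes summed to 526, 578 and 437 RPKM in pum kd, against 482, 544 and 481 RPKM in control. The Cyp9 genes summed to 224, 222 and 196 RPKM in pum kd, against 178, 214 and 195 RPKM in control. For the Cyp12 genes the sums were 96.9, 101 and 88.5 RPKM in pum kd, against 84.4, 106 and 88.0 RPKM in control, and for the other numbers 578, 574 and 532 RPKM in pum kd, against 497, 618 and 521 RPKM in control. Over all 82 members the sum was 1949 ± 265 RPKM in pum kd and 1740 ± 174 RPKM in control (SD, n = 3 each), and without Cyp4e3 it was 1647 ± 127 RPKM in pum kd and 1614 ± 153 RPKM in control.

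**Figure D2:**
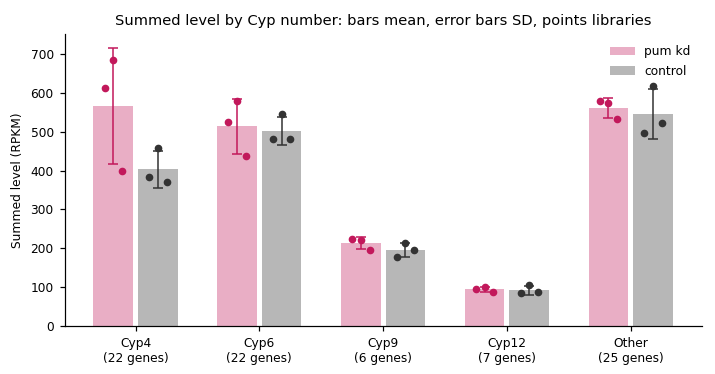
Summed level (RPKM) of the P450 genes of each Cyp number class; bars are means, error bars SD and points the 3 libraries of pum kd (left) and control (right). The genotypes overlap in every class, and the Cyp4 sum spreads most, between 398 and 684 RPKM in pum kd.

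The test was fitted on all genes that passed a filter on low counts, 10696 in all and 72 of the 82 members. Calls needed an adjusted p below 0.05 together with a log2 fold change of 1 or more in either direction. edgeR called no member, beside 0.103% of all genes tested (11 genes, 0.0841% higher and 0.0187% lower in pum kd). An unadjusted p under 0.05 was reached by 11 of the 72 members (15.3%), 10 of them higher in pum kd and 1 lower, beside 4.95% of all genes tested (3.28% higher and 1.66% lower). Other tools called a few members. DESeq2 called 2, Cyp4p1 and Cyp4e3, beside 0.599% of all genes, and edgeR without a filter called the same 2, beside 0.552%. A gene length offset gave 1 (Cyp4p1), beside 0.197%. After ComBat-seq, which adjusts counts for batches, edgeR called 1 (Cyp4p1), beside 0.234%, and DESeq2 called 4, beside 1.9%. All 3 pum kd libraries lay above all 3 control libraries for 7 members and under them for 4, together 15.3% of those tested, beside 10.3% of all genes (5.36% above and 4.95% under). The fitted log2 fold change was above 0 for 43 members (59.7%), beside 45.6% of all genes. The median log2 fold change was 0.09 for the members and -0.03 for all genes tested. With 1 library left out the members' median ranged from 0.0033 to 0.25, the highest without control replicate 2. The median over all genes in those fits is not given here.

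By class, the Cyp6 genes had the most members with an unadjusted p under 0.05, 5 of 19 tested, all higher in pum kd. Of the Cyp6 genes, 12 had a fold change above 0 and 7 below it, with a median log2 fold change of 0.22. The Cyp4 genes had 4 of 22, of which 3 were higher and 1 lower in pum kd, and their median was 0.11. All 6 Cyp9 genes had a fold change above 0, with a median of 0.21 and a range of 0.06 to 0.46 on the log2 scale, and 1 of them, Cyp9c1, had an unadjusted p under 0.05. Without pum kd replicate 1 or control replicate 1, 5 of the 6 were above 0. For the 6 Cyp12 genes tested the median was 0.05, and none had such a p. For the 19 genes of other numbers it was -0.07, and 1 had such a p, Cyp28a5. Grouped by clan, the 33 CYP3 genes had a median of 0.21, with 22 above 0 and 11 below it, while the 28 CYP4 genes had a median of 0.02, with 14 above 0 and 14 below it. The differences between classes were not tested.

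**Figure D3:**
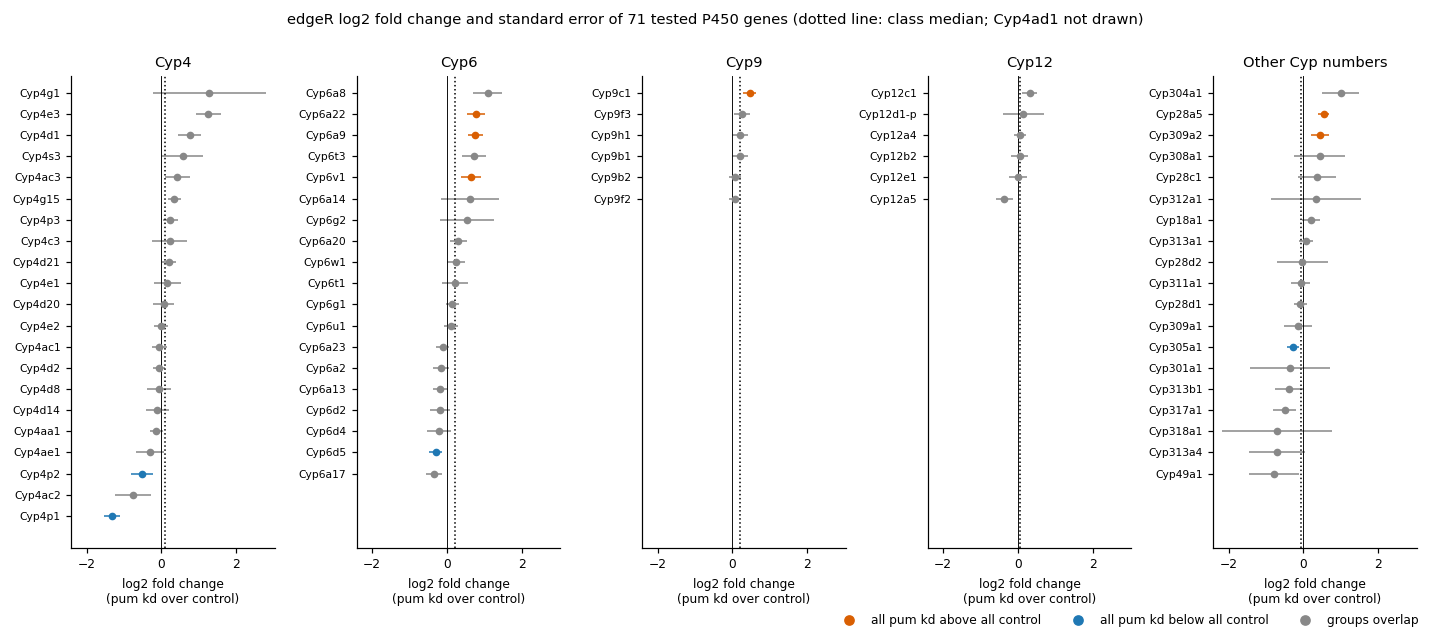
edgeR log2 fold change of pum kd over control, with its standard error, for 71 tested P450 genes in panels by Cyp number, each ordered by value; Cyp4ad1, at 0 in every control library, is not drawn. Colour marks genes whose libraries do not overlap, and the dotted line is the class median, between -0.07 and 0.22.

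The lowest p of the family belonged to Cyp4p1 (FBgn0015037, at 9240041 to 9242139 on the plus strand of chromosome arm 2R in dm6). Cyp4p1 had 48.2, 29.1 and 41.1 CPM in the pum kd libraries, against 92.3, 116 and 85.2 CPM in the control libraries. The highest pum kd value was well under the lowest control value. Its log2 fold change was -1.31 (SE 0.21, edgeR adjusted p = 0.0696), which missed the threshold. The adjusted p fell under 0.05 in DESeq2 (1.5e-05) and in 5 other settings, and ranged up to 0.376 over all those tried. Of its neighbours, Cyp4p2 had the same direction and Cyp4p3 had a fold change above 0. Cyp4p2 had 5.19, 3.71 and 5.34 CPM in pum kd, against 6.10, 8.25 and 6.03 CPM in control, again without overlap (log2 fold change -0.52, edgeR adjusted p = 0.993). Cyp4p3, chosen after its values were seen, had 11.9, 13.4 and 13.7 CPM in pum kd, against 9.94, 11.96 and 11.1 CPM in control. The 3 genes lie in a row within hig, a gene on the opposite strand, and share no exon base with it. The log2 fold change of hig was -0.05.

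Cyp4e3 (FBgn0015035, 9747839 to 9750071 on the minus strand of 2L) had 605, 760 and 270.2 CPM in pum kd, against 219, 273 and 192 CPM in control. Pum kd replicates 1 and 2 were far above the rest, and pum kd replicate 3 lay just below control replicate 2. The log2 fold change was 1.26 (SE 0.33, edgeR adjusted p = 0.436), and 1.28 in DESeq2 (adjusted p = 0.00948). Without pum kd replicate 3 the adjusted p in edgeR was 0.0498. Over pum kd replicates 1, 2 and 3 the fat body markers summed to 4024, 4522 and 3730 CPM. The antenna markers summed to 223, 74.7 and 7.95 CPM there, and both sums were lowest in replicate 3, as Cyp4e3 was. Most of the fat body sum came from apolpp and FASN1, and its markers did not share one order. FASN1, Lsd-1 and Lsp2 were lowest in replicate 3. Lowest in replicate 1 were apolpp (1774, 2477 and 2050 CPM), Mtp and bmm. The photoreceptor and glia sums were also lowest in replicate 3, and the sums of the other marker lists were not. Within the photoreceptor and glia lists, trp and repo were highest in replicate 3. In control the fat body markers summed to 4447, 3628 and 3569 CPM, highest in replicate 1, while Cyp4e3 was highest in replicate 2. The part of tissue makeup in the Cyp4e3 values was not tested.

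**Figure D4:**
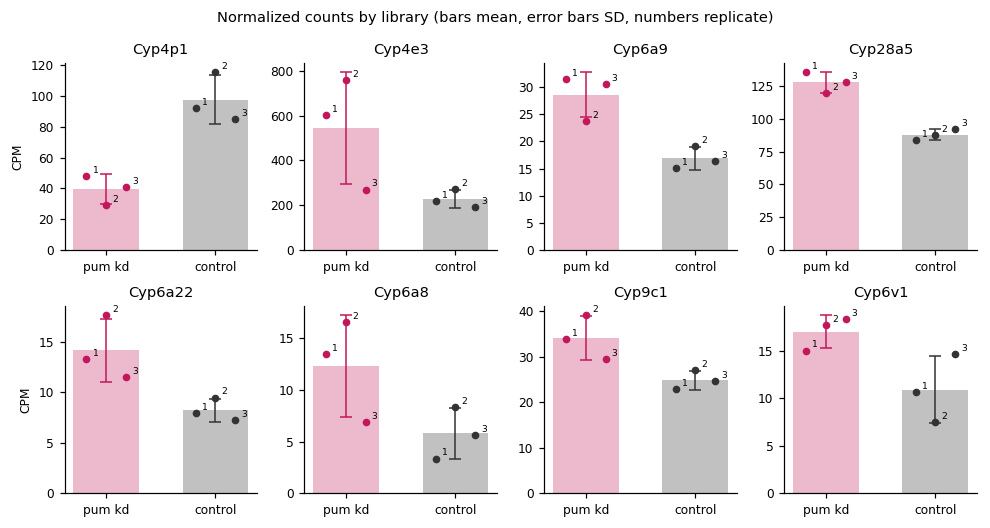
Normalized counts (CPM) of 8 P450 genes by library, pum kd on the left and control on the right; bars are means, error bars SD and the small numbers replicates. Cyp4p1 is lower in every pum kd library, with 29.1 to 48.2 CPM in pum kd and 85.2 to 116 CPM in control, and Cyp4e3 is led by pum kd replicates 1 and 2.

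Among Cyp6 genes, 3 of the 5 low p-values fell in one stretch of 2R (14871366 to 14903095 in dm6), which holds 7 Cyp6a genes and Cyp317a1. Cyp6a9 had 31.5, 23.8 and 30.5 CPM in pum kd, against 15.0, 19.2 and 16.4 CPM in control (log2 fold change 0.76, SE 0.20, edgeR adjusted p = 0.436). Cyp6a22 had 13.3, 17.7 and 11.5 CPM in pum kd, against 7.97, 9.50 and 7.27 CPM in control (log2 fold change 0.78, edgeR adjusted p = 0.592). For both genes every pum kd library was above every control library. Cyp6a8, which is overexpressed in DDT-resistant strains, had 13.5, 16.6 and 6.92 CPM in pum kd, against 3.35, 8.33 and 5.68 CPM in control. Its log2 fold change was 1.09 (SE 0.39, edgeR adjusted p = 0.807), and pum kd replicate 3 lay within the control range.

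The other genes tested in the stretch did not reach an unadjusted p under 0.05 in edgeR. Cyp6a17, which affects temperature preference, had 27.1, 27.5 and 22.1 CPM in pum kd, against 43.1, 27.3 and 27.3 CPM in control, and its neighbour Cyp6a23 had 46.1, 51.4 and 40.7 CPM in pum kd, against 57.2, 47.6 and 44.6 CPM in control. Both were chosen after their values were seen. Cyp6a20, known for its effect on male aggression, had 22.8, 17.2 and 28.01 CPM in pum kd, against 16.5, 19.4 and 19.0 CPM in control. Its log2 fold change was 0.31, and the groups overlapped. At the end of the stretch, Cyp317a1 had 6.33, 7.71 and 9.48 CPM in pum kd, against 15.7, 8.08 and 9.50 CPM in control (log2 fold change -0.50). Of the 7 genes tested in the stretch, 4 had a fold change above 0 and 3 below it. Cyp6a9 shares 397 exon bases with Cyp6a19 on the opposite strand, and Cyp6a19 had too few counts to be tested.

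**Figure D5:**
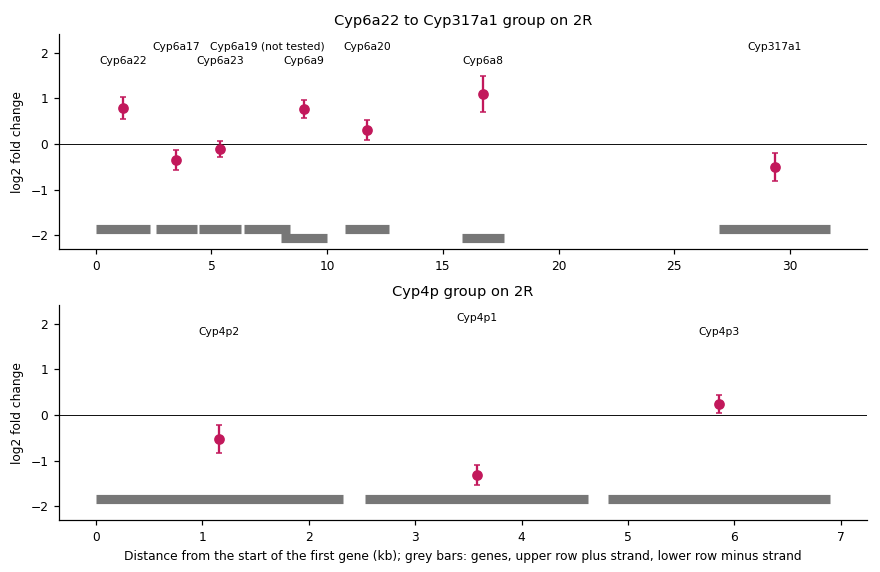
edgeR log2 fold change (pum kd over control) with its standard error for the P450 genes of 2 stretches of 2R, against distance from the start of the first gene in kilobases; grey bars show the genes, plus strand above minus strand. Neighbours differ in sign in both stretches, as for Cyp4p1 (-1.31) and Cyp4p3 (0.24).

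Nearness on the chromosome was common in the family. With members within 20 kb of each other taken as a group, 47 of the 82 lay in 17 groups, and 33 of the 82 were on 2R. In another group, Cyp6g1, Cyp6g2 and Cyp6t3 had log2 fold changes of 0.15, 0.54 and 0.73. Cyp6t3, an enzyme required for ecdysone production in larvae, had 19.2, 9.26 and 9.23 CPM in pum kd, against 6.25, 9.39 and 7.12 CPM in control, with pum kd replicate 1 alone above the control range. Cyp6g2, which is expressed in the corpus allatum, had 1.98, 3.18 and 1.58 CPM in pum kd, against 1.45, 0.628 and 2.56 CPM in control. The corpus allatum is a site of the driver, but whether these head libraries held the gland was not tested. The Cyp6g2 groups overlapped, and it shares 94 exon bases with the more abundant Cyp6g1 on the opposite strand. Cyp6g2 and Cyp6t3 were chosen after their values were seen.

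Cyp28a5, Cyp9c1, Cyp6v1 and Cyp309a2 also had every pum kd library above every control library. Cyp28a5 had 135, 120 and 128 CPM in pum kd, against 83.5, 87.7 and 91.9 CPM in control (log2 fold change 0.54, SE 0.15, edgeR adjusted p = 0.514). Cyp9c1 had 33.8, 39.1 and 29.5 CPM in pum kd, against 22.9, 27.0 and 24.6 CPM in control (log2 fold change 0.46, edgeR adjusted p = 0.846). An antisense RNA covers 98.2% of the exon bases of Cyp9c1, and its log2 fold change was -0.06. Cyp6v1 had 15.1, 17.7 and 18.4 CPM in pum kd, against 10.7, 7.50 and 14.6 CPM in control, and Cyp309a2 had 12.6, 17.8 and 14.3 CPM in pum kd, against 8.46, 12.5 and 11.6 CPM in control. None of the 4 reached a log2 fold change of 1. Cyp305a1 was the fourth gene whose pum kd libraries all lay lower, with 53.8, 54.8 and 46.6 CPM in pum kd, against 63.4, 67.3 and 58.3 CPM in control (log2 fold change -0.28, edgeR adjusted p = 0.993). Fitted log2 changes of 1 or more in size were found for 5 of 72 members, beside 7.4% of all genes.

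Genes near the detection limit gave less certain values. Cyp4ad1 had 16, 13 and 16 counts in the pum kd libraries and 0 in all 3 control libraries. With a floor of 3 counts set for each control library the ratio was 4.81, a value that depends on the floor and is not a lower bound. The log2 fold change had an SE of 2.44 (edgeR adjusted p = 0.808). Of the 719 genes with 30 to 60 counts over the pum kd libraries, 22.3% had 0 counts in every control library. Cyp6a16 had 100 counts in pum kd replicate 2 and 0 in the other 5 libraries. Cyp4g1, which makes cuticular hydrocarbons in oenocytes, had 37, 170 and 148 counts in pum kd, against 0, 140 and 0 in control (log2 fold change 1.28, SE 1.501). The oenocyte markers found in the table summed to 9.12, 8.03 and 13.9 CPM in pum kd libraries, against 4.26, 11.1 and 9.09 CPM in control libraries. Of these 5 markers, CG18609 and CG17562 were at 0 in all 6 libraries, while FarO was read in every library. The part of oenocytes in the Cyp4g1 counts was not tested. In Cyp4g1 a single control library thus held all control reads, and without it the gene was called.

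Members with known roles in hormones, courtship and cuticle overlapped between the genotypes. Cyp18a1, which inactivates ecdysteroids, had 16.5, 22.0 and 13.3 CPM in pum kd, against 13.4, 18.9 and 12.5 CPM in control. Cyp4d21 (sxe1), which is expressed in male heads and affects courtship, had 121, 90.5 and 121 CPM in pum kd, against 81.3, 113 and 95.4 CPM in control. Cyp301a1, needed for the adult cuticle, had at most 1.70 CPM in a pum kd library, against at most 2.32 CPM in a control library. Among other named members, Cyp4g15 had 111, 130.5 and 98.9 CPM in pum kd, against 103, 83.0 and 81.9 CPM in control. Cyp6a2, raised in DDT-resistant strains, had 98.3, 113 and 71.3 CPM in pum kd, against 90.3, 123 and 101 CPM in control. Cyp6w1 had 109.9, 169.8 and 85.2 CPM in pum kd, against 96.7, 114 and 96.3 CPM in control.

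The remaining named members also had overlapping genotypes. Cyp9f2 and Cyp9b2, the leading Cyp9 genes, had log2 fold changes of 0.06 and 0.07, and Cyp9h1 one of 0.21. Cyp12a4, which confers lufenuron resistance when overexpressed, had 45.01, 48.7 and 41.4 RPKM in pum kd, against 42.4, 46.8 and 41.1 RPKM in control, and was the most abundant Cyp12 gene. Cyp12b2 and Cyp12e1 had log2 fold changes of 0.05 and 0.01. Cyp12d1-p had 5.94, 2.88 and 2.20 CPM in pum kd, against 5.44, 2.23 and 2.29 CPM in control. Its near-identical copy Cyp12d1-d was at 0 everywhere, so reads of the pair may be counted under one copy or lost as multimapping. Cyp4c3 and Cyp49a1 had log2 fold changes of 0.22 and -0.79, with standard errors of 0.46 and 0.67. Cyp303a1, which acts in sensory bristles, had too few counts to be tested. Of genes chosen after their values were seen, Cyp4d1 and Cyp304a1 had log2 fold changes of 0.75 and 1.00, with overlap (edgeR adjusted p of 0.892 and 0.993).

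The libraries themselves shifted many members together. Of the 72 tested members, 33 (45.8%) were highest in replicate 2 among the pum kd libraries, beside 27.7% of all genes, and 42 (58.3%) were highest in replicate 2 among the control libraries, beside 40.4% of all genes. The median log2 deviation of the members from their genotype's mean was 0.06, 0.06 and -0.16 in pum kd libraries, and -0.08, 0.12 and -0.05 in control libraries. Pum kd replicate 3 was thus the lowest library of its genotype for the family and control replicate 2 the highest of its own. These 2 libraries also held the highest neuron marker sum in pum kd and the lowest in control. The photoreceptor and glia marker sums were lowest in pum kd replicate 3 and highest in control replicate 2 within their genotypes. Most of the glia sum came from Gs2, and not every marker had this order. The glia marker repo was highest in pum kd replicate 3 (67.7 CPM) and lowest in control replicate 2 (55.0 CPM), where nrv2 was also lowest. The photoreceptor marker trp was highest in replicate 3 of both genotypes. The 6 fat body markers summed to 4024, 4522 and 3730 CPM in pum kd, against 4447, 3628 and 3569 CPM in control, and 5 of the 6 had a fold change above 0, none of them called. Among them Lsd-1, a lipid droplet protein, had 297, 215 and 177 CPM in pum kd, against 99.9, 143 and 71.7 CPM in control. The part of tissue makeup in the P450 values was not tested. The spread between libraries was usual for these data. The median coefficient of variation of the members was 18.8% in pum kd and 19.7% in control, beside 18.3% in pum kd and 21.9% in control for all genes tested.

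None of the proteins that supply P450s with electrons was called. Cpr, the reductase of the microsomal enzymes, had 219, 226 and 191 CPM in pum kd, against 224, 205 and 202 CPM in control (log2 fold change 0.01). Of the 5 partners tested, Fdx2 alone had an unadjusted p under 0.05 (0.0363), with 23.5, 22.2 and 19.4 CPM in pum kd, against 13.8, 19.2 and 11.5 CPM in control. Of 9 regulators, 0 had an unadjusted p under 0.05. Among them cnc, the transcription factor of the oxidative and xenobiotic response, had 210, 249 and 244 CPM in pum kd, against 277, 196 and 243 CPM in control, and its inhibitor Keap1 had a log2 fold change of -0.01. Hr96, a nuclear receptor of the xenobiotic response, had one of 0.10, and the juvenile hormone receptors Met and gce had -0.04 and -0.25. The ecdysone synthesis P450 genes outside the naming rule were low in heads, with 4 of 6 tested and none called, and 5 of the 6 stayed under 2 CPM in every library. The most abundant was shd, which makes the active hormone 20-hydroxyecdysone, with 5.46, 10.7 and 9.03 CPM in pum kd, against 4.23, 4.08 and 6.68 CPM in control.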

How the data were processed

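The authors trimmed reads with Trimmomatic 0.39, checked them with FastQC 0.12.1, aligned them to dm6 and counted them per gene with STAR 2.7.11b. The raw counts, which the authors deposited without normalization, were used for every value. A second deposited table holds a normalized signal per library (counts after ComBat-seq divided by DESeq2 size factors). That deposited table also holds the authors' own comparison (log2 fold changes, p-values and a Wald score), which was not used. It also named 72 members, and Ensembl annotation of dm6 named the other 10 and gave positions and exon lengths. The strand setting of the counting was not given in the sources used here, and 21 members share exon bases with another gene.

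Rows that name no gene held 11.5% to 14.2% of each library and were not used. Genes were filtered (filterByExpr), scaled by TMM and tested over all genes in edgeR 4.0.16 (quasi-likelihood, Benjamini-Hochberg) in R 4.3.3. RPKM is TMM-scaled CPM per exon kilobase, summed over the union of exons. Libraries of 1 genotype differed by far more than sampling noise (the lowest chi-square per df was 44.0). The pipeline was tested on simulated data. DESeq2 1.42.0 and ComBat-seq (sva 3.50.0) served for alternatives, along with RLE size factors, other filters, a robust dispersion and a gene length offset. Further alternatives were a replicate block, a term for the division of the libraries used with ComBat-seq, and each library left out. Members named were the 3 most abundant of each class, those without overlap between genotypes, the 5 with the lowest p in each direction, those at 0 in 1 genotype with at least 30 counts in the other, and a list of known roles. Members and lists were chosen with earlier results of these data known. No sequences were used here.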

Additional observations from a re-analysis of the deposited data

How the results depend on the processing

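The count of P450 members called, 0 with edgeR, was 2 with DESeq2 (Cyp4e3 and Cyp4p1), 2 with no filter (the same genes), 1 with a gene length offset (Cyp4p1), 1 with ComBat-seq and then edgeR (Cyp4p1) and 4 with ComBat-seq and then DESeq2 (Cyp4ad1, Cyp4e3, Cyp4g1 and Cyp4p1). Over all genes, 11 were called by edgeR, 64 by DESeq2, 73 with no filter, 21 with the length offset, 25 with ComBat-seq and then edgeR and 202 with ComBat-seq and then DESeq2. Both ComBat-seq settings were chosen after seeing the data. They use a division of the libraries that gave back 100% of 62304 of the authors' normalized values within a tolerance of 0.01 counts. It sets control replicates 1 and 2 and pum kd replicate 1 against the other libraries, so it is not balanced over the genotypes. The main edgeR fit had no term for it. Leaving out 1 library gave 0 to 2 members called (Cyp4g1 and Cyp4p1 without control replicate 2, Cyp4e3 without pum kd replicate 3), 1 to 31 genes called and 7 to 15 members with an unadjusted p under 0.05. The 7 came without pum kd replicate 2, and the share of all genes in that fit is not given here. The 15 came without control replicate 2, where 13.2% of all genes had such a p.

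Leaving out 1 library moved the median log2 fold change of all members between 0.0033 and 0.25, of Cyp4 between -0.0074 and 0.31, of Cyp6 between 0.061 and 0.25, of Cyp9 between 0.095 and 0.31, of Cyp12 between -0.045 and 0.20 and of the other numbers between -0.21 and 0.23. The Cyp12 median was 0.15 with ComBat-seq and then DESeq2, and that of the other numbers was 0.12 with no filter and 0.077 with a replicate block. The direction turned in 1 or more settings for some named members, among them Cyp301a1 (log2 fold change -0.35, SE 1.07). With the length offset, Cyp9f2 had -0.0049, Cyp12a4 -0.016 and Cyp12e1 -0.048, and Cyp12e1 had -0.029 with ComBat-seq and then edgeR and -0.023 with ComBat-seq and then DESeq2. With 1 library left out, the log2 fold change ranged from -0.31 to 0.032 for Cyp6a2, from -0.0100 to 0.15 for Cyp9f2, from -0.022 to 0.19 for Cyp9b2, from -0.0074 to 0.16 for Cyp12a4 and from -0.13 to 0.39 for Cyp12b2. It ranged from -0.19 to 0.23 for Cyp12e1, from -0.19 to 0.059 for Cyp28d1, from -0.011 to 0.25 for Cyp313a1, from -0.39 to 0.70 for Cyp12d1-p and from -0.22 to 0.56 for Cyp4c3. It ranged from -0.067 to 0.45 for Cyp6w1, from -0.0096 to 0.47 for Cyp18a1, from -1.02 to 0.46 for Cyp301a1 and from -0.20 to 0.00052 for Cyp6a23. The causes were not tested. Of the 41 named members tested, 27 kept one sign in all 16 settings.

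The correlations of deviations between libraries of the 2 genotypes with the same replicate number were -0.09, -0.02 and 0.01. Those between different numbers ranged from -0.05 to 0.06. No pairing by number was seen in them, but they were taken over all genes and cannot exclude a shared replicate effect. With the replicate block 0 members were called, as without it, and 14 genes in all. The planned fits on whole reads recovered from the authors' table were not run. With 3 pools per genotype, members with few counts, such as Cyp4g1 and Cyp301a1, had standard errors above 1 on the log2 scale.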
